A study of Rattus norvegicus with 42 samples.

Results

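The genes described here build and run motile cilia, or the transport of cargo inside any cilium. They were chosen by symbol from the count table of a hippocampal RNA-seq study in Sprague Dawley rats. Every transcript entered whose symbol starts with Dnah, Dnai, Dnali, Rsph, Tekt, Cfap or Spag, or with Ift or Bbs and a digit, and so did Foxj1, Ccdc39 and Ccdc40. This gave 65 transcripts of 61 genes, out of 15516 transcripts of 14304 genes. A second rn6 locus repeated the values of Rsph4a and of Spag4, so 63 transcripts were counted, and 58 of them passed the filter on low counts. The other 5 were not tested (Tekt3, Rsph14, Spag6l, Spag16 and Cfap157), with mean normalized counts from 0.452 for Spag6l to 8.50 for Tekt3. Male pups received a single intraperitoneal injection on postnatal day 7, which held either saline as vehicle (VEH), 75 mg/kg of phenobarbital (PB) or 200 mg/kg of levetiracetam (LEV), and hippocampi were taken 72 h later, on postnatal day 10. No genetic alteration is stated, and each library came from 1 animal. One VEH animal that the labels mark as left out was not used, which left 13 VEH, 14 PB and 14 LEV animals. The sample codes take 2 forms, called series 1 (animals 1 to 6 of each group) and series 2 (animals 7 to 14), and what else separates the series is not stated.

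Motile cilia carry an axoneme of microtubule doublets. Dynein arms slide the doublets, radial spokes and the central pair regulate the stroke, and tektins and other proteins stiffen the doublets from inside. In the brain, motile cilia stand in tufts on the ependymal cells that line the ventricles, and the transcription factor FOXJ1 switches on their gene programme. The choroid plexus epithelium, which secretes cerebrospinal fluid and makes transthyretin (Ttr), is itself ciliated and lies against the hippocampus, so Ttr marks choroid plexus and not the absence of ependyma. Intraflagellar transport (IFT) proteins and the BBSome, a coat of Bardet-Biedl syndrome (BBS) proteins, also serve the single primary cilium of neurons and glia. The members therefore fell into an axoneme class (33 tested transcripts), a transport class of IFT and BBS proteins (21) and 4 SPAG proteins that are not part of a cilium's axoneme (Spag4, Spag5, Spag7 and Spag9). The axoneme class also holds the regulator Foxj1 and assembly factors such as Spag1, which are not themselves parts of the axoneme. Dnah1 was the single heavy chain among the members, so outer-arm heavy chains were not covered.

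RFX transcription factors, partners of FOXJ1 in cilium genes, bind the X-box, whose core is GTTGCC. RefSeq promoter windows of the GRCr8 assembly, from 250 bases before to 50 after each gene's start, matched 47 of the 61 genes. The core stood on either strand in 11 of 28 axoneme genes (39.3%) and 7 of 15 transport genes (46.7%), against 12.2% of all 33469 windows. A longer, looser X-box, in which GTTNCC is followed after 2 free bases by GNNAAC (N being any base), stood on either strand in 3 of the 47 (6.38%, against 1.15% of all windows), namely Cfap298, Bbs7 and Ift172. It can overlap the core but need not contain it, and Bbs7 and Ift172 held no core. The forkhead motif TGTTTAC stood in 3 of the 47 (6.38%, against 3.78% of all windows). Of 15 genes with a window whose level varied with Ttr, 7 held the core (46.7%, as in the transport genes) and 0 the forkhead motif. The 120 bases before the start are printed 5′ to 3′ on the gene's strand, in lower case with the core in capitals (read as GGCAAC where it lies on the other strand). The first 4 are axoneme genes whose level varied with Ttr, Cfap126 had the largest such slope and no core, and Ift81 is a transport gene that passed the adjusted p limit after PB. They lie at chr10:57479122-57479241, minus strand (Tekt1), chr5:143907725-143907844, minus strand (Tekt2), chr11:97677720-97677839, plus strand (Spag6), chr1:147177822-147177941, minus strand (Cfap161), chr13:86059022-86059141, plus strand (Cfap126), and chr12:39618502-39618621, plus strand (Ift81). GRCr8 names this Spag6 transcript (NM_001034960) Spag6l, and gives the symbol Spag6 to the member called Spag6l here.
Tekt1: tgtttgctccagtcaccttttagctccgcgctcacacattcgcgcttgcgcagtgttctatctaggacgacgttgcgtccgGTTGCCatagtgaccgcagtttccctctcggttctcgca
Tekt2: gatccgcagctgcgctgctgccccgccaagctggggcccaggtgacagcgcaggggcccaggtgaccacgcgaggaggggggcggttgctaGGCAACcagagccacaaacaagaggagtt
Spag6: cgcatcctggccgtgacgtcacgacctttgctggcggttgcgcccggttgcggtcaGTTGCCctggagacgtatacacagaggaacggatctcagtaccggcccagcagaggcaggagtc
Cfap161: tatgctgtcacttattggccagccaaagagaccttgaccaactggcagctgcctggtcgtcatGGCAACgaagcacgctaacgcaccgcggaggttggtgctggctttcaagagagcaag
Cfap126: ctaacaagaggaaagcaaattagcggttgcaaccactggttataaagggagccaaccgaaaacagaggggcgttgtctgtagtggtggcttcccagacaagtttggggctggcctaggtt
Ift81: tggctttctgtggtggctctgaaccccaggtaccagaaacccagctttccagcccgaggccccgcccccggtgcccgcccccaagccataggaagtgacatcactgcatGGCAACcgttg
In Tekt1 the core spans bases -39 to -34 from the start, and in Tekt2 it spans -29 to -24. A match is a description of the letters, and binding was not measured.

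The libraries held 9499492 to 14488134 counts each. Values are given as normalized counts, scaled to the mean library. The 6 hippocampal neuron markers examined, Slc17a7, Camk2a, Neurod2, Neurod6, Prox1 and Rbfox3, were detected in all 41 animals, the lowest value being 385.9 for Rbfox3. Ttr ranged from 9.21 (VEH animal 5) to 81380 (PB animal 5), an 8835-fold span. Its level was 9.21 at the lowest, 2509 at the median and 51020 at the highest in VEH, 26.7, 7758 and 81380 in PB, and 20.9, 19730 and 56650 in LEV. All groups thus contained animals with almost no Ttr and animals with very much of it. Ttr did not differ detectably between treatments (log2 fold change 0.88, SE 1.04, adjusted p = 0.692 for PB against VEH, and 0.88, SE 1.05, adjusted p = 0.957 for LEV against VEH, edgeR). In such bulk samples, fewer cells of a type and less RNA per cell cannot be told apart.

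After either drug the median log2 fold change of the axoneme genes against VEH was positive (0.31 for PB and 0.33 for LEV), and no axoneme gene passed the test. For LEV this median was 0.05 in series 1 and 0.55 in series 2, and 6 of the 17 axoneme genes followed through every alternative fit were negative in series 1. The choroid plexus markers lay the same way, with 20 of 20 transcripts positive for each drug and medians of 0.57 and 0.67. One of the 20 repeats the values of Otx2, and these markers varied together, so they are not independent. None had an unadjusted p under 0.05 for either drug. With Ttr, a choroid plexus marker, in the model the axoneme medians were 0.15 and 0.16. Foxj1 (NM_053832, rn6 chr10:105282095-105289376) was 99.1 at the lowest, 174.1 at the median and 350.9 at the highest in VEH, 127.6, 217.8 and 444.2 in PB, and 124.9, 268.2 and 581.9 in LEV. The groups overlapped over most of their range. The 6 highest animals had received a drug, and all 6 were also rich in Ttr. Their Ttr ran from 35290 to 81380, against a median of 6582 over all 41 animals. The lowest of the 6, PB animal 13 (359.2), lay near VEH animal 14 (350.9). The log2 fold change of Foxj1 was 0.37 (SE 0.24, adjusted p = 0.404) for PB against VEH and 0.49 (SE 0.24, adjusted p = 0.844) for LEV against VEH. These contrasts share the VEH animals.

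**Figure D1:**
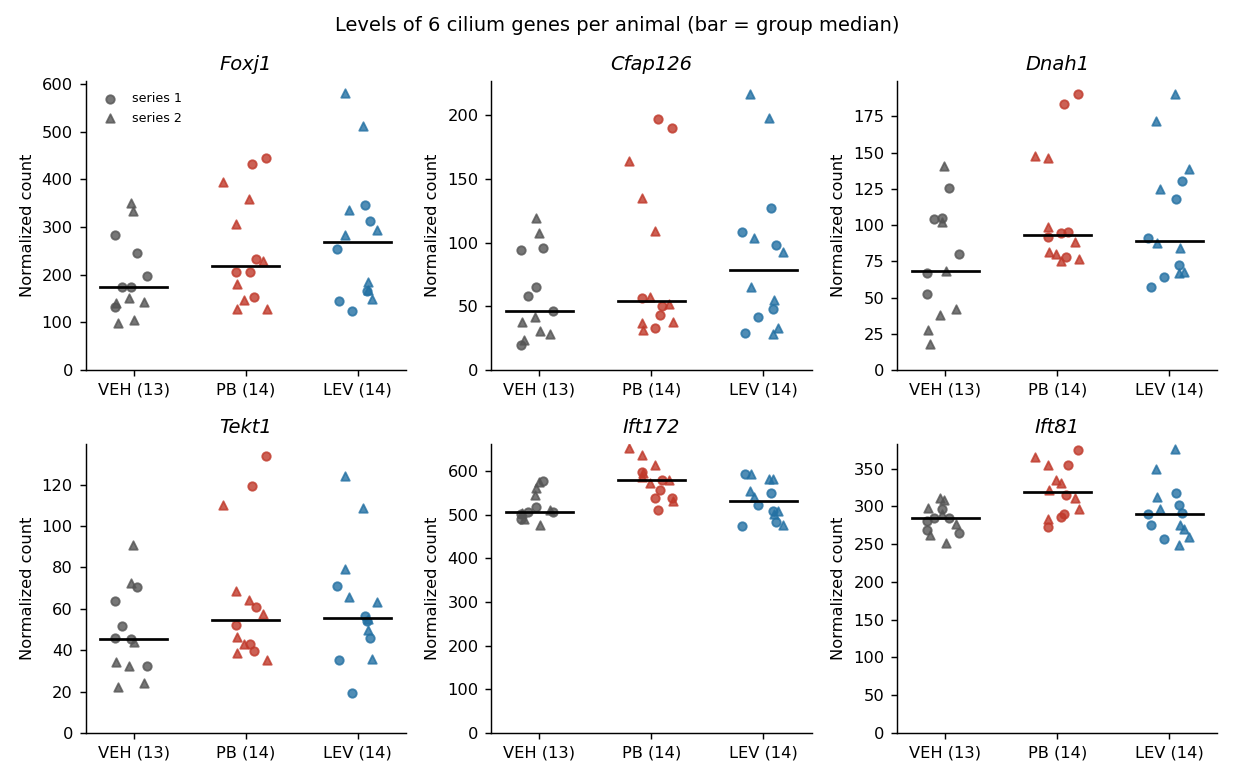
Normalized counts (y axes) of 4 genes of the axoneme class, Foxj1 among them, and 2 transport genes in each animal, by treatment (x axes, number of animals in brackets). Circles mark series 1, triangles series 2 and bars the group medians. The axoneme genes spread widely within every group, whereas the transport genes Ift172 and Ift81 stay in a narrow band that sits higher after PB (medians 579.2 against 506.0, and 318.6 against 285.1).

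No member was a DEG in any comparison of treatments by edgeR, a DEG being a transcript that passes the fold limit of the study with an adjusted p below 0.05. Of all 13062 transcripts tested, 79 (0.605%) were called for PB against VEH, 0 (0%) for LEV against VEH and 76 (0.582%) for PB against LEV. By adjusted p alone, 2 of 58 members were called for PB against VEH (background 5.39%), 0 for LEV against VEH (0.00766%) and 0 for PB against LEV (4.45%). At an unadjusted p under 0.05 the members numbered 14 (24.1%), 9 (15.5%) and 4 (6.9%) in these 3 comparisons, against 20.2%, 5.84% and 19.6% of all transcripts. The share of members was thus near that of all transcripts for PB against VEH, above it for LEV against VEH and below it for PB against LEV. DESeq2 called 0 members by both limits in each comparison.

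Within the axoneme class, 29 of 33 fold changes were positive for PB against VEH, and 32 of 33 for LEV against VEH. Over all transcripts the median log2 fold changes were 0.005 and 0, and 51.9% and 50.2% were positive. No axoneme member passed adjusted p under 0.05, and 8 (24.2%) had an unadjusted p under 0.05 in each comparison, against 20.2% of all transcripts for PB and 5.84% for LEV. The members were not independent of each other, since many varied together across animals. The 2 drugs differed little from each other in this class, with a median log2 difference of -0.03 for PB against LEV and values from -0.24 to 0.18.

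All 4 dynein arm genes had positive fold changes for both drugs, and none passed the test. Dnah1, a heavy chain of an inner dynein arm, was 17.8 at the lowest, 68.6 at the median and 141.0 at the highest in VEH, 75.6, 93.0 and 190.7 in PB, and 57.2, 89.5 and 190.8 in LEV. In 13 of 14 PB animals and 11 of 14 LEV animals it lay above the VEH mean of the same series. Its log2 fold change was 0.55 (SE 0.23, adjusted p = 0.162) for PB and 0.50 (SE 0.23, adjusted p = 0.829) for LEV. The light intermediate chain Dnali1 had log2 fold changes of 0.43 and 0.36 and the intermediate chain Dnai1 0.31 and 0.21, for PB and LEV against VEH in that order.

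Rsph1, of the spoke head, lay at a VEH median of 39.2, against 53.3 for PB and 59.1 for LEV, with log2 fold changes of 0.51 (SE 0.20, adjusted p = 0.131) and 0.55 (SE 0.20, adjusted p = 0.687). Rsph10b had log2 fold changes of 0.30 and 0.25, and the spoke head gene Rsph4a 0.42 and 0.45 with a wide SE of 0.34 for each. Values near 0 were found for Rsph9, also of the spoke head (0.02 and 0.06), and a negative and a positive value for Rsph6a (-0.18 and 0.06), a spoke head paralogue best known from sperm. Rsph3, of the spoke stalk, had 0.15 and 0.05.

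Tekt4, a tektin inside the doublets, had the largest fold changes of the axoneme class and the lowest mean count of its tested members (12.1). It was 1.19 at the lowest, 8.63 at the median and 14.9 at the highest in VEH, 4.95, 9.46 and 26.2 in PB, and 5.10, 13.3 and 36.0 in LEV. Its log2 fold change was 0.70 (SE 0.29, adjusted p = 0.160) for PB and 0.87 (SE 0.29, adjusted p = 0.626) for LEV. Tekt1 had 0.42 and 0.33 and Tekt2 0.44 and 0.45, while Tekt5 had 0.05 and 0.09.

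Ccdc39 and Ccdc40 form the ruler along which spokes and inner arms repeat. Ccdc40 had log2 fold changes of 0.39 (SE 0.21) for PB and 0.40 (SE 0.21) for LEV, and Ccdc39 had 0.12 (SE 0.06) and 0.06 (SE 0.06). None of these passed the test. Among SPAG proteins of the axoneme or its assembly, Spag8, found inside the doublets, had 0.58 and 0.39, the dynein assembly factor Spag1 had 0.31 and 0.37, and the central pair protein Spag6 had 0.25 and 0.22. Of the 13 CFAP genes tested, Cfap126, which acts at the basal body, had 0.51 and 0.58, and Cfap45, a protein of the doublet's inside, had 0.28 and 0.33. The 3 CFAP genes with the highest counts, Cfap36, Cfap410 and Cfap20, had values from -0.08 to 0.06.

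The transport genes differed by little, and they held the only members past the adjusted p limit. For PB against VEH these were 2 of 21 transport transcripts (9.52%), against 5.39% of all transcripts. Ift172, the largest protein of IFT complex B, was 476.2 at the lowest, 506.0 at the median and 575.7 at the highest in VEH, 509.8, 579.2 and 653.1 in PB, and 473.9, 531.3 and 592.9 in LEV. In 13 of 14 PB animals it lay above the VEH mean of its series. It rose after PB by a log2 fold change of 0.15 (SE 0.04, adjusted p = 0.018), a 1.11-fold difference under the fold limit. Within series 1 the value was 0.10 (adjusted p = 0.502) and within series 2 0.19 (adjusted p = 0.0531). With the VEH animal that had been left out put back, it was 0.09 (adjusted p = 0.427) and not called. The paper had excluded this animal for its unlike coverage. In 41 fits that each left out 1 animal the call was kept, with adjusted p from 0.00879 to 0.0386.

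Ift81, which binds tubulin cargo with Ift74, was 252.0 at the lowest, 285.1 at the median and 311.7 at the highest in VEH, 272.2, 318.6 and 375.1 in PB, and 248.8, 290.6 and 376.7 in LEV. It rose after PB by 0.18 (SE 0.06, adjusted p = 0.0462), and its partner Ift74 had 0.04 (SE 0.06). The Ift81 call was lost in 20 of 41 fits that each left out 1 animal, with adjusted p from 0.0277 to 0.0847. Within series 1 and 2 its values were 0.17 (adjusted p = 0.368) and 0.19 (adjusted p = 0.200). Next in order of unadjusted p came Ift46 at 0.21 (adjusted p = 0.0596) and Ift122, of complex A, at 0.14 (adjusted p = 0.0607). For LEV against VEH these 4 genes had 0.04, 0.06, 0.01 and 0.08, and for PB against LEV none of the 4 passed the test, with adjusted p of 0.0757, 0.187, 0.072 and 0.466.

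The 6 BBS genes stayed between -0.003 and 0.08 for PB and between -0.02 and 0.09 for LEV, and none had an unadjusted p under 0.05. Their 3 members with the highest counts, Bbs1, Bbs4 and Bbs2, had 0.05, -0.003 and 0.08 for PB, and Bbs10, a chaperonin-like assembly factor, had 0.03. Ift20, which links the cilium to the Golgi, had -0.02 for each drug. Over the transport class the median log2 fold change was 0.03 for PB and 0.04 for LEV. One of 2 Ift52 transcripts, NM_001177685, had -1.07 for LEV (SE 0.52, adjusted p = 0.844) and was at 0 in some PB and LEV animals, while NM_001308389 had 0.10. The authors' estimation divides reads between transcripts of a gene, so the split between these 2 is uncertain. Of the SPAG proteins outside the axoneme, Spag5, a spindle protein, had 0.21 for PB against VEH (adjusted p = 0.114) and 0.21 for PB against LEV (adjusted p = 0.104), Spag9, a signalling scaffold, -0.03 and -0.03, and Spag7 0.002 and -0.02. In the same PB against VEH comparison all 3 tested skeletal muscle markers (Myh4, Atp2a1 and Acta1) were lower, with a median log2 fold change of -2.06. This difference was not alike in the 2 series. The interaction of PB and series was called for 2 of the 3 markers (median 3.25, smallest adjusted p = 0.00192, edgeR). Of the 6 neuron markers, only 1 was called, Camk2a, at a log2 fold change of -0.26 (adjusted p = 0.0364). The median of the 6 was -0.06 and the highest value 0.006. The part of the muscle and neuron markers in the IFT values was not tested.

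Across animals, most axoneme genes varied with Ttr. Ttr was added to the model as log2 CPM (counts scaled to library size), and its slope is the log2 change of a gene for each doubling of Ttr at equal treatment and series. The slope was positive and called (adjusted p under 0.05) for 21 of 33 axoneme transcripts, against 4.64% of all transcripts, or 4.3% called and positive. None was called among 21 transport transcripts or among the 4 other SPAG transcripts. An unadjusted p under 0.05 was found for 3 transport transcripts (14.3%), about the share of all transcripts (13.7%). The median slope was 0.08 in the axoneme class, 0.005 in the transport class and -0.001 over all transcripts.

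**Figure D2:**
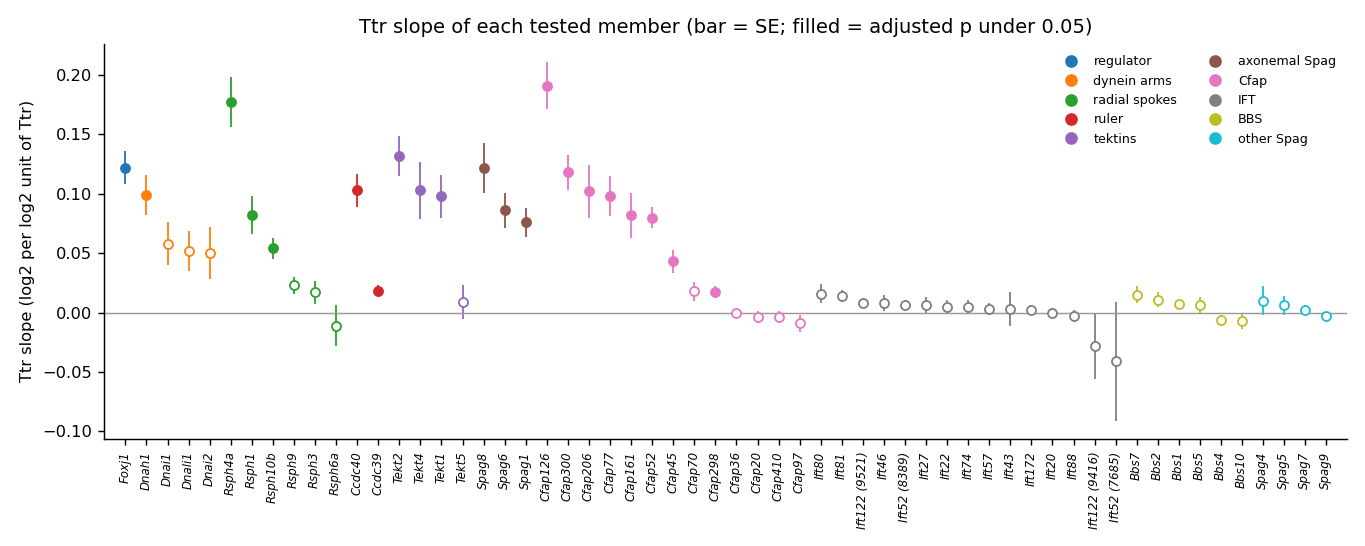
Ttr slope (y axis, log2 change per log2 unit of Ttr, with SE) of the 58 tested members (x axis), coloured by role and filled where adjusted p was under 0.05. Filled points occur in the axoneme roles, up to 0.19 for Cfap126, and the IFT and BBS genes lie close to 0.

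Cfap126 had the steepest slope, 0.19 (SE 0.02, adjusted p = 6.43e-10), which is a 1.70-fold difference for a 16-fold difference in Ttr. Next came Rsph4a at 0.18 (adjusted p = 2.35e-08), Tekt2 at 0.13 (adjusted p = 9.08e-08), Foxj1 at 0.12 (SE 0.01, adjusted p = 1.87e-08) and Spag8 at 0.12 (adjusted p = 5.09e-05). Ccdc40 (0.10), Tekt4 (0.10), Dnah1 (0.10), Tekt1 (0.10), Spag6 (0.09), Rsph1 (0.08) and Spag1 (0.08) were called as well. With Ttr in the model, the spread of log2 values within groups fell from 0.65 to 0.41 (SD) for Foxj1 and from 0.92 to 0.55 for Cfap126, whereas for Ift172 it was 0.10 in both.

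The class was not uniform. Dnali1 (0.05, adjusted p = 0.0603) and Dnai1 (0.06, adjusted p = 0.0593) missed the limit. Slopes near 0 were found for Cfap36, Cfap20, Cfap410, Cfap97, Rsph6a and Tekt5, from -0.01 to 0.01. Ccdc39 had a shallow slope of 0.02 (adjusted p = 0.0391) beside 0.10 for its partner Ccdc40, and the Ccdc39 call was lost in both series taken alone. It was also lost in 18 of 41 fits that each left out 1 animal, with adjusted p from 0.0135 to 0.0997.

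The animals at both ends of the Ttr range show the size of the relation. VEH animal 5, with the least Ttr (9.21), had 131.5 for Foxj1, 20.1 for Cfap126 and 500.7 for Ift172. PB animal 5, with the most Ttr (81380), had 432.7 for Foxj1, 196.6 for Cfap126 and 509.8 for Ift172. Foxj1 was therefore detected where Ttr was almost missing. Single animals departed from the relation: PB animal 2 had Ttr of 36.8 and Foxj1 of 233.7, and VEH animal 9 had Ttr of 2053 and Foxj1 of 99.1, the lowest of all 41. VEH animal 9 was also the lowest for Rsph4a (6.68) and for Dnai2 (3.34), an intermediate chain of the outer arm.

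**Figure D3:**
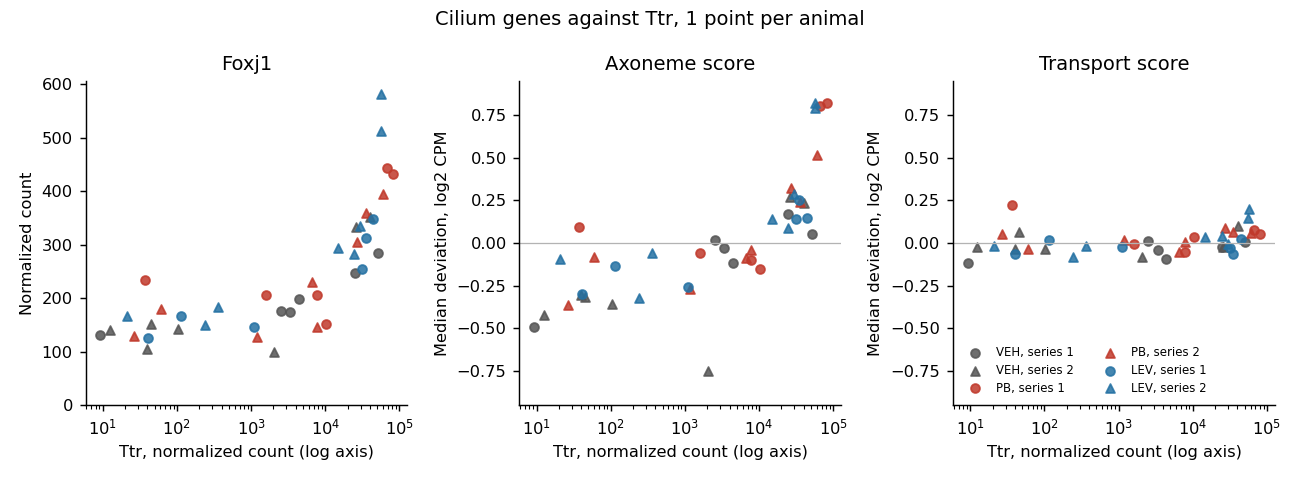
Foxj1 (normalized count, left) and the axoneme and transport scores (median over the tested members of a class of the deviation from each member's mean log2 CPM, middle and right) against Ttr (normalized count, log axis), 1 point per animal, coloured by treatment, with circles for series 1 and triangles for series 2. The axoneme score runs from -0.75 to 0.82 and climbs at high Ttr in all treatments, and the transport score stays between -0.11 and 0.22.

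The relation was not a straight line on the log scale, since the axoneme genes climbed at the high end of Ttr. Single animals scattered around this climb. PB animal 6, with Ttr of 10250, had 152.4 for Foxj1, while LEV animal 7, with Ttr of 14740, had 293.8. PB animal 12, with a lower Ttr of 6582, had 229.3. With Ttr entered on a linear scale, a choice made after seeing the data, 27 members had a called slope. Within series 1 alone 10 members were called and within series 2 alone 17. Among VEH, PB and LEV animals alone the counts were 5, 3 and 14, from 13 or 14 animals each. These counts were not compared with the share of all transcripts called in the same fits. They therefore do not separate the members from the smaller number of animals. The other choroid plexus markers rose with Ttr in 20 of 20 tested transcripts (1 of which repeats the values of Otx2), with a median slope of 0.59, so the axoneme genes were shallower than these. The summed level of the 20 choroid plexus genes, Ttr included, ran from 360.6 to 56190 in VEH, from 445.0 to 88490 in PB and from 420.5 to 66100 in LEV. Several defining markers were at 0 in some animals (Otx2 in 6, Mfrp in 4, Clic6 in 2).

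With Ttr as a covariate, the fold changes of the axoneme class shrank toward 0. The median log2 fold change went from 0.31 to 0.15 for PB against VEH and from 0.33 to 0.16 for LEV against VEH, and 28 and 31 of 33 stayed positive. Foxj1 went from 0.37 to 0.17 (adjusted p = 0.577) and from 0.49 to 0.27 (adjusted p = 0.859). Cfap126 went from 0.51 to 0.17 and from 0.58 to 0.25, while Dnah1 kept 0.41 (adjusted p = 0.162) and 0.34 (adjusted p = 0.828). This fit was linear in log2 Ttr, whereas the relation was not. How far the remaining values still vary with Ttr was not tested. The transport class kept its median of 0.03 for PB and had 0.03 for LEV.

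**Figure D4:**
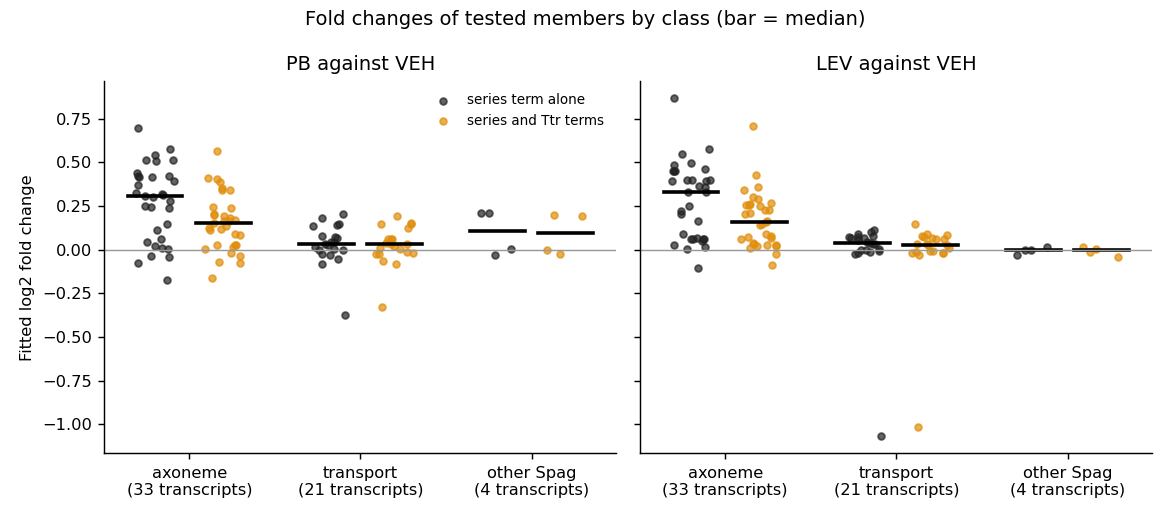
Fitted log2 fold changes (y axes) of the 58 tested members by class (x axes), for PB against VEH (left) and LEV against VEH (right), with the series term alone (black) and with series and Ttr (orange), and bars at the class medians. The axoneme median moves from 0.31 to 0.15 and from 0.33 to 0.16 when Ttr is added, and the transport medians stay near 0.03.

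Again 0 members were called by both limits with Ttr in the model. Over all transcripts 0.674%, 0% and 0.666% were called for PB against VEH, LEV against VEH and PB against LEV. By adjusted p alone Ift172 was the 1 member called for PB against VEH, at 0.15 (adjusted p = 0.0247, background 5.49%), and 0 were called for LEV against VEH (0.0153%) and PB against LEV (4.71%). Ift81 had an adjusted p of 0.073. Unadjusted p was under 0.05 for 13 (22.4%), 4 (6.9%) and 4 (6.9%) of 58 members, against 20.2%, 5.96% and 20.2% of all transcripts. The choroid plexus markers held no call with or without Ttr in the model. They were all positive for both drugs before Ttr was added. With Ttr, 8 of 20 were positive for PB against VEH and 14 of 20 for LEV against VEH. How much of an axoneme value comes from ependyma and how much from ciliated choroid plexus cannot be told apart in these samples.

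The series label moved few members. For series 2 against series 1, 0 members were called by both limits (background 4.12%) and 6 of 58 by adjusted p alone (30.2%), while 9 (15.5%) had an unadjusted p under 0.05, against 40.1% of all transcripts. Higher in series 2 were Bbs5 (log2 0.20), Cfap97 (0.25) and Spag9 (0.11), and lower were Cfap298 (-0.14), Cfap410 (-0.13) and Spag4 (-0.28). For the axoneme class the median fold change after PB was 0.29 in series 1 alone and 0.29 in series 2 alone. The interaction of drug and series was called for 0 members with either drug, against 0.0689% of all transcripts for PB and 0.842% for LEV, and 3 (5.17%) and 6 (10.3%) members had an unadjusted p under 0.05, against 11.1% and 12.8% of all transcripts. The LEV interaction was positive in 30 of 33 axoneme members (median 0.40, smallest adjusted p = 0.335). It was also positive in 20 of 20 choroid plexus transcripts (median 0.81), and their part in it was not tested.

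Other genes of cilia were taken from lists drawn up by role. Of 19 tested axoneme transcripts outside the symbol rule, 12 (63.2%) had a called Ttr slope, against 4.64% of all transcripts. Among them were Spef2 (0.10), of the central pair, and Drc1 (0.07), a subunit of the nexin-dynein regulatory complex. A called slope was also found for 6 of 13 dynein assembly and docking transcripts (46.2%), such as the docking gene Ccdc114 (0.11) and the assembly factor Dnaaf1 (0.08). Of ependymal markers outside the rule, 4 of 5 were called, namely Dynlrb2 (0.10), Tmem212 (0.09), Ak7 (0.08), which is also on the axoneme list, and Ccdc153 (0.07). Of 4 tested regulators of multiciliation, Tp73 (0.05) and Rfx2 (0.05) were called.

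Among genes of transport and of the ciliary base, 2 of 21 further IFT and BBSome-related transcripts (9.52%) had a called slope. So did 3 of 19 transcripts (15.8%) of the transition zone, the gate at the base of a cilium. Over all transcripts the share was 4.64%. None of 4 genes of the neuronal primary cilium (Adcy3, Sstr3, Arl13b and Htr6), of 6 hippocampal neuron markers or of 3 muscle markers was called. Between treatments, none of the transcripts on these cilium lists passed adjusted p under 0.05 for either drug against VEH. For PB against LEV, Tcte1, an axoneme gene, was lower by a log2 difference of -0.21 (adjusted p = 0.00619). It was 1 of 19 on its list (5.26%), against 4.45% of all transcripts. With Ttr in the model, 1 of 21 other IFT and BBS transcripts (4.76%) passed both limits for PB against LEV, against 0.666% of all. It was higher after PB and close to the limit (adjusted p = 0.0497, edgeR). Without Ttr the smallest adjusted p on that list was 0.0516, for Ttc8. The median log2 fold changes for PB and LEV against VEH were 0.28 and 0.31 for the other axoneme genes, 0.29 and 0.27 for dynein assembly and docking, and 0.07 and 0.01 for the other IFT and BBS genes.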

How the data were processed

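RNA of 42 hippocampi was sequenced, 14 per group. The authors trimmed reads, aligned them to rn6 with STAR 2.7.3a and estimated counts per RefSeq transcript in Partek. The deposited values are estimated (expected) counts, 13.7% of them not whole, rounded here before testing. A second deposited table holds the authors' own DESeq2 comparisons and was not used. Transcripts were filtered by filterByExpr (13062 of 15516 kept), normalized by TMM and tested by edgeR (4.0.16) quasi-likelihood tests in 1 fit over 41 animals with treatment and series as terms. A second fit added Ttr (log2 CPM, prior count 2, centred). P-values were Benjamini-Hochberg adjusted over all transcripts and are two-sided. DEG limits were those of the study (adjusted p under 0.05, fold of 1.25). The study removed batch effects before testing. Here series was a term. Counts per animal of 9499492 to 14488134 leave members under about 10 normalized counts imprecise. The scripts were tested on simulated data.

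The members, lists and tests were chosen with earlier results of these data known. Named were Foxj1, Ccdc39 and Ccdc40, the 3 members with the highest mean counts of each role, 3 more for each comparison by smallest p, and those whose Ttr slopes were among the 5 steepest or the 5 lowest. Any other gene named was chosen after its values were seen. Litters supplied 1 animal per treatment, but no label ties animal numbers to litters, so p-values measure the spread between animals. Counting was not stated to use strand. Gene positions are those of rn6 in the table, and promoter windows are from RefSeq on GRCr8. Alternatives were DESeq2 (1.42.0), other normalization and filters, series alone or left out of the model, all 14 VEH animals, animal number as a block, counts per gene, other choroid plexus markers in place of Ttr, and each animal left out in turn.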

Additional observations from a re-analysis of the deposited data

How the results depend on the processing

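By both limits, 0 members were called between treatments under every alternative run. The number of members called by adjusted p alone for PB against VEH was 2, and it was 4 with DESeq2, 1 with no filter, 1 without the series term, 0 in series 1 alone, 0 in series 2 alone, 1 with all 14 VEH animals and 1 to 4 with single animals left out. With Ttr in the model it was 1, and it was 0 in series 1 alone, 0 in series 2 alone, 0 with all 14 VEH animals and 0 to 3 with single animals left out. For PB against LEV it was 0, and it was 2 with DESeq2, 1 with a series-by-treatment term and 0 to 1 with single animals left out. With Ttr, 1 was called with DESeq2, 1 with Ttr on a linear scale (added after seeing the data) and 0 to 1 with single animals left out. The count of called Ttr slopes was 21, and it was 10 in series 1 alone, 5 in VEH animals alone, 3 in PB animals alone and 20 to 25 with single animals left out. With DESeq2 it was 22, and with other choroid plexus markers in place of Ttr 25. The share of all transcripts with a called slope was not compared between these fits. In series 1 alone, 6 of 17 named axoneme members turned negative for LEV against VEH, namely Ccdc40 (-0.012), Dnai1 (-0.29), Tekt1 (-0.13), Spag6 (-0.22), Spag8 (-0.11) and Rsph4a (-0.058). The cause of these changes was not tested. Correlations of equally numbered animals between treatments, with group and series removed, ran from -0.351 to 0.282. They were not compared with those of unequally numbered animals, so whether equal numbers share a litter was not tested. With animal number as a replicate block, 1 member was called by adjusted p for PB against VEH (Ift81 had 0.0734) and 19 Ttr slopes were called. The SE of the PB against VEH log2 fold change was 0.49 for the Ift52 transcript NM_001177685 (mean normalized count 19.9), 0.35 for Cfap126 (78.2), 0.34 for Rsph4a (33.4) and 0.29 for Tekt4 (12.1), against 0.04 for Ift172.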
